A study of Mus musculus with 7 samples.

Results

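The genes described here were 10 genes of pulmonary surfactant and of the alveolar type 2 (AT2) cell that makes it: Sftpa1, Sftpb, Sftpc, Sftpd, Abca3, Napsa, Lamp3, Slc34a2, Lpcat1 and Etv5. They were taken by name from a lung count table of 55401 genes, and all 10 were found and had enough counts to be tested among 17465 genes. Their counts ranged from 1595 to 433657 per mouse. Lungs of 4 bleomycin-challenged mice (BLM) were compared with lungs of 3 bleomycin-challenged mice exposed to hyperbaric oxygen (BLM+HBO). All 7 were male C57BL/6 mice of 6 to 8 weeks, and all had been given bleomycin, which damages the alveoli and leads to fibrosis. HBO, oxygen breathed under pressure, was given at 2.5 ATA for 90 min a day over 14 days from day 7, and the lungs were collected at day 21. For the BLM mice, the sample labels state that they stayed in the chamber for as long without pressurized oxygen, while the supplementary methods call them untreated. No uninjured lung was among the samples, so the levels below cannot be set against those of a healthy lung. The methods kept only mice with enough weight loss after bleomycin. Each library was taken as 1 mouse, and the labels do not say that animals were pooled.

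AT2 cells line the alveoli beside the flat alveolar type 1 (AT1) cells, secrete surfactant from lamellar bodies, and can divide and turn into AT1 cells after injury. Surfactant is a film of phospholipids with the hydrophobic proteins SP-B and SP-C, which keep surface tension low, and the collectins SP-A and SP-D, which bind microbes and help regulate surfactant. Loss or stress of AT2 cells is a known feature of lung fibrosis. In whole lung RNA, fewer cells of a type and less RNA per cell cannot be told apart.

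RefSeq promoter sequences of the GRCm38.p6 build, which run from 250 bases before to 50 bases after a start, were found for 7 of the 10 genes: Sftpa1, Sftpb, Abca3, Lamp3, Slc34a2, Lpcat1 and Etv5. Of these, 4 are shown, those of Sftpa1 and Sftpb as neighbours in function whose levels differed in their pattern below, that of Lamp3 for the lamellar body, and that of Lpcat1, whose difference between the groups was the smallest. Only bases before the start are printed, 5′ to 3′ on the strand of the gene, at chr14:41131538-41131781, plus strand for Sftpa1, chr6:72304360-72304609, plus strand for Sftpb, chr16:19706376-19706615, minus strand for Lamp3 and chr13:73466981-73467196, plus strand for Lpcat1. Capitals mark matches on either strand to the core letters bound by lung epithelial factors: CTCAAG for NKX2-1, TGTTTAC for FOXA, CCGGAA for ETS factors and GGAATG for TEAD.
Sftpa1: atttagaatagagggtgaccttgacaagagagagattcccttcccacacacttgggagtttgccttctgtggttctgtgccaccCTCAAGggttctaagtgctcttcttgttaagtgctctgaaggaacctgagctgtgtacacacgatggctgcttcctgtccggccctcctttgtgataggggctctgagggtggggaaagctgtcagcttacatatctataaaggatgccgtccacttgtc
Sftpb: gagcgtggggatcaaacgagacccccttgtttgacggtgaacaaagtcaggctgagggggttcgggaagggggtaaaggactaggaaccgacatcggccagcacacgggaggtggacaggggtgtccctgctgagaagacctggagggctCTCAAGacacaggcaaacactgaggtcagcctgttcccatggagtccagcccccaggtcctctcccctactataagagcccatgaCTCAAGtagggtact
Lamp3: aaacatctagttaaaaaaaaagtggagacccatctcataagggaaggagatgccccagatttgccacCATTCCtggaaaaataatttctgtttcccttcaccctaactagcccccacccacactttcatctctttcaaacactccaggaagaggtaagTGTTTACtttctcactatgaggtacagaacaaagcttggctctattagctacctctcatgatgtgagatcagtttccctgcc
Lpcat1: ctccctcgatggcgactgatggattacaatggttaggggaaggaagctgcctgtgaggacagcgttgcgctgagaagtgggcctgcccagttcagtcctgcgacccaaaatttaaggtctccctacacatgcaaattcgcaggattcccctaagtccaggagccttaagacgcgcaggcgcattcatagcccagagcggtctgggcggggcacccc

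The NKX2-1 letters stood in the promoters of Sftpa1 and Sftpb, the latter with a pair of matches, and in 15.9% of 32851 RefSeq mouse promoters. The FOXA letters stood in those of Lamp3 and Etv5 and in 3.65% of all promoters. The TEAD letters stood in those of Abca3, Lamp3 and Slc34a2 and in 14.7% of all promoters, and the ETS letters in that of Abca3, where they overlapped the TEAD match, and in 14.9% of all promoters. The Lpcat1 stretch held none of these letters. A match describes letters only.

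Every one of the 10 genes had a higher fitted level in BLM+HBO than in BLM, and Sftpa1 alone passed both thresholds of the study, an unadjusted P below 0.05 and a fold change above 1.5. Levels are given as CPM, counts per 1000000 counts of the normalized library, and fold changes as log2 values of BLM+HBO over BLM with their standard error (SE). A positive log2 fold change was found for 10 of the 10 genes and for 51.2% of all tested genes, and their median was 0.29, against 0.01 over all genes. The 10 genes varied together across the mice, as described below, so their directions are not 10 independent observations. The 1 call among 10 stands beside 3.4% of all tested genes called higher, 2.89% called lower and 6.29% called in either direction. At an adjusted P below 0.05, edgeR's quasi-likelihood test called 0 of the 10 genes, 0.0% of all genes, with 1 of the 10 and 1861 of all genes at an unadjusted P below 0.05. DESeq2 called Sftpa1 and Sftpc at the study's thresholds, 2 of 10 beside 3.68% of all genes called higher, and 0 of 10 after adjustment, beside 0.733% of all genes.

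Mice of the same group differed widely from each other. For each of the 10 genes, BLM 1 and BLM+HBO 2 held the lowest pair of values, with BLM 1 lowest for 9 genes and BLM+HBO 2 lowest for Abca3. BLM+HBO 3 was highest for 8 genes and BLM+HBO 1 for Lamp3 and Etv5. The ranges of the groups overlapped for all 10 genes, while they did not overlap for 8.77% of all tested genes. BLM+HBO 2 lay within the BLM range for 9 genes. BLM+HBO 1 and BLM+HBO 3 both lay above every BLM mouse for 5 genes (Sftpa1, Sftpc, Lamp3, Slc34a2 and Etv5), as they did for 11.9% of all genes. The highest mouse had between 1.82 times (Lpcat1) and 3.57 times (Sftpc) the level of the lowest.

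**Figure D1:**
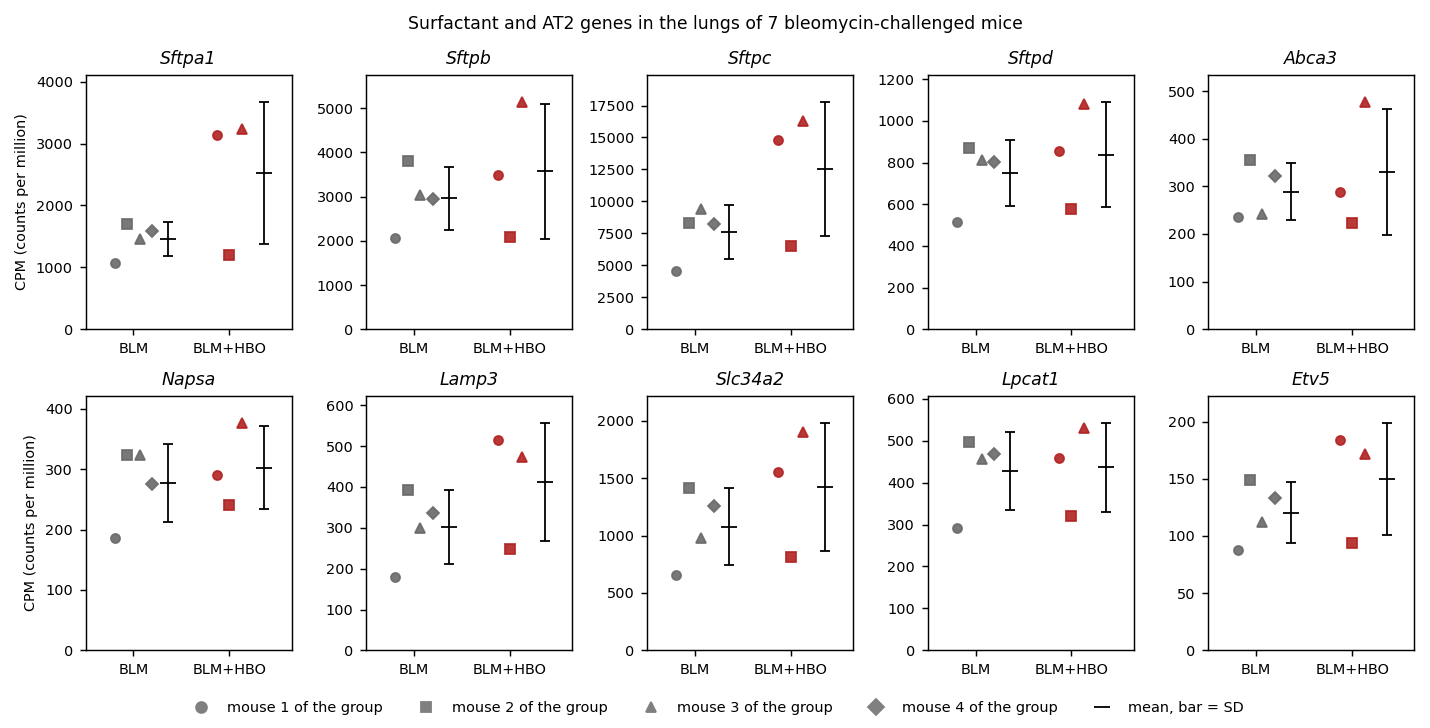
CPM of each of the 10 genes in every mouse, with BLM in grey and BLM+HBO in red, a marker shape for each replicate number within a group (the numbers do not pair mice) and the group mean with its SD at the right. BLM 1 and BLM+HBO 2 lie at the bottom of every panel, and BLM+HBO 3 is the highest point in 8 of 10.

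Of the collectins, Sftpa1, which encodes surfactant protein A, had 1070, 1708, 1454 and 1592 CPM in BLM 1 to 4 and 3147, 1199 and 3231 CPM in BLM+HBO 1 to 3. BLM+HBO 1 and 3 thus stood above all BLM mice, and BLM+HBO 2 stood below all but BLM 1. The means were 1456 ± 277 CPM (SD, n = 4) and 2526 ± 1149 CPM (SD, n = 3). The log2 fold change was 0.79 (SE 0.31), with an adjusted P of 0.441 by edgeR's quasi-likelihood test. Its size and its call depended on which mice were in the fit. Leaving out BLM+HBO 2 raised it to 1.13 (adjusted P = 0.0318 by edgeR, the lowest over the alternatives, which reached 0.802). Leaving out any 1 of BLM 1 (0.67), BLM 3 (0.79), BLM+HBO 1 (0.61) and BLM+HBO 3 (0.57) left its unadjusted P above 0.05. Sftpa1 was the 1 gene of the 10 below an adjusted P of 0.05 when BLM+HBO 2 was left out, beside 1.49% of all genes.

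Sftpd, which encodes the other collectin, surfactant protein D, had 515, 870, 812 and 800.4 CPM in BLM 1 to 4 and 855, 577 and 1083 CPM in BLM+HBO 1 to 3. Its BLM mice lay close together but for BLM 1, and the BLM+HBO mice spread across and above them. The log2 fold change was 0.16 (SE 0.24), smaller than its error. Both genes lie on chromosome 14, Sftpa1 at chr14:41131782-41136452 on the plus strand and Sftpd at chr14:41172214-41185149 on the minus strand. The one protein-coding gene annotated between them, Mbl1, which encodes another collectin, mannose-binding lectin, had 0.606 to 1.04 CPM in BLM and 1.49, 0.861 and 1.76 CPM in BLM+HBO 1 to 3 (log2 fold change 0.71, SE 0.39). Mbl1 did not pass the thresholds.

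Of the hydrophobic proteins, Sftpc had 4549, 8327, 9381 and 8263 CPM in BLM 1 to 4 and 14821, 6535 and 16262 CPM in BLM+HBO 1 to 3. SP-C, its product, is made by AT2 cells alone among the cells of the adult lung. The order of mice was that of Sftpa1 in BLM+HBO, with mice 1 and 3 far above BLM and mouse 2 among the BLM mice. The means were 7630 ± 2117 CPM (SD, n = 4) and 12539 ± 5250 CPM (SD, n = 3). The log2 fold change was 0.72 (SE 0.34), with an adjusted P of 0.492 by edgeR's quasi-likelihood test, and Sftpc did not pass the study's thresholds. DESeq2, by which it passed them, gave an adjusted P of 0.302. With BLM+HBO 2 left out the log2 fold change became 1.02 (adjusted P = 0.0889 by edgeR), and with another single mouse left out it ranged from 0.48 to 0.83.

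Sftpb, whose product SP-B spreads the lipid film and is needed for breathing at birth, had 2055, 3801, 3036 and 2946 CPM in BLM 1 to 4 and 3478, 2089 and 5140 CPM in BLM+HBO 1 to 3. BLM+HBO 1 lay within the BLM range here, whereas it lay above that range for Sftpa1 and Sftpc. The log2 fold change was 0.27 (SE 0.30), and without BLM+HBO 3 it was -0.10. Sftpb lies at chr6:72304610-72314371 on the plus strand and Sftpc at chr14:70520949-70524081 on the minus strand.

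Of the genes that handle surfactant lipid, Abca3, the transporter that loads phospholipid into lamellar bodies, had 235, 356, 242 and 321 CPM in BLM 1 to 4 and 288, 223 and 477 CPM in BLM+HBO 1 to 3. Only BLM+HBO 3 lay outside the BLM range on the high side, and BLM+HBO 2 lay just below it. The log2 fold change was 0.19 (SE 0.25), and -0.18 without BLM+HBO 3. Lpcat1, the acyltransferase that remodels phosphatidylcholine into the dipalmitoyl form of surfactant, had 291, 496, 456 and 469 CPM in BLM 1 to 4 and 459, 321 and 529 CPM in BLM+HBO 1 to 3. Its log2 fold change of 0.03 (SE 0.22) was the smallest of the 10, and its sign changed when BLM 1 was left out (-0.12), and likewise for BLM+HBO 1 (-0.01) and BLM+HBO 3 (-0.14). Slc34a2, the sodium-phosphate cotransporter of the AT2 surface, had 658, 1419, 975 and 1262 CPM in BLM 1 to 4 and 1557, 815 and 1904 CPM in BLM+HBO 1 to 3. BLM+HBO 1 and 3 lay above BLM 2, the highest BLM mouse, and the log2 fold change was 0.40 (SE 0.31).

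Of the genes of processing and of the lamellar body, Napsa, the aspartic protease that helps process SP-B, had 186, 323, 323 and 275 CPM in BLM 1 to 4 and 290.0, 240.2 and 376 CPM in BLM+HBO 1 to 3. BLM+HBO 1 and 2 lay within the BLM range, and the log2 fold change was 0.13 (SE 0.21). Lamp3, a membrane protein of lamellar bodies that mature dendritic cells also make, had 179, 392, 299 and 336 CPM in BLM 1 to 4 and 516, 248 and 474 CPM in BLM+HBO 1 to 3. BLM+HBO 1 and 3 lay above all BLM mice, and the log2 fold change was 0.45 (SE 0.29). Etv5, an ETS factor of the FGF pathway that maintains AT2 identity, had 87.8, 149, 112 and 133 CPM in BLM 1 to 4 and 184, 93.9 and 172 CPM in BLM+HBO 1 to 3. Its order across the mice was that of Lamp3, with a log2 fold change of 0.32 (SE 0.24).

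Without BLM+HBO 2, 4 of the 10 genes passed the study's thresholds (Sftpa1, Sftpc, Lamp3 at 0.71 and Slc34a2 at 0.68 on the log2 scale), beside 5.29% of all genes called higher in the same fit. With any 1 of BLM 1, BLM 3, BLM+HBO 1 and BLM+HBO 3 left out, 0 of 10 passed. Over all genes, those at an unadjusted P below 0.05 by edgeR numbered 1175, 2064, 1017 and 1272 in these fits, of 17249, 17227, 17831 and 17813 tested. With all mice they numbered 1861 of 17465. These counts take either direction and no fold limit, so they are not a like share for the calls at both thresholds. The direction held for Sftpa1, Sftpc, Lamp3, Slc34a2 and Etv5 with each mouse left out in turn, and it changed in at least 1 such fit for Sftpb, Sftpd, Abca3, Napsa and Lpcat1.

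Per length, as TPM, which divides each count by the gene's length and scales the sum over genes to 1000000 per mouse, Sftpc was the most abundant of the 10 genes in each mouse, at 22273 ± 5666 TPM (SD, n = 4) in BLM and 36402 ± 14403 TPM (SD, n = 3) in BLM+HBO. Sftpb and Sftpa1 followed in BLM, at 4545 ± 980.5 and 1542 ± 272 TPM (SD, n = 4), then Sftpd at 938 ± 179 TPM and Slc34a2 at 651 ± 197 TPM. The ranges of Sftpd and Slc34a2 overlapped across mice, though Sftpd was the higher of them within each mouse. Within each BLM mouse Napsa (mean 314 TPM) was above Lpcat1 (279.6 TPM) and Lamp3 (272 TPM), though their ranges overlapped. Lpcat1 and Lamp3 changed order between BLM mice, as did Abca3 (93.4 TPM) and Etv5 (89.0 TPM). In BLM+HBO the order was the same down to Slc34a2.

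The 10 genes together took 0.967%, 1.72%, 1.69% and 1.64% of all counts in BLM 1 to 4 and 2.65%, 1.25% and 3.00% in BLM+HBO 1 to 3. The means were 1.5 ± 0.36% (SD, n = 4) and 2.3 ± 0.93% (SD, n = 3), and the difference of 0.796 percentage points was smaller than the SD of the BLM+HBO mice. The 4 surfactant protein genes made up most of it, at 0.806% to 1.45% in BLM and at 2.31%, 1.05% and 2.60% in BLM+HBO 1 to 3. Sftpc alone took 0.448% to 0.926% in BLM and 1.53%, 0.662% and 1.64% in BLM+HBO 1 to 3. The 6 other genes together took 0.161% to 0.302% in BLM and 0.341%, 0.197% and 0.398% in BLM+HBO 1 to 3. Shares were given no test, since the genes of the sum were chosen with their values known.

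**Figure D2:**
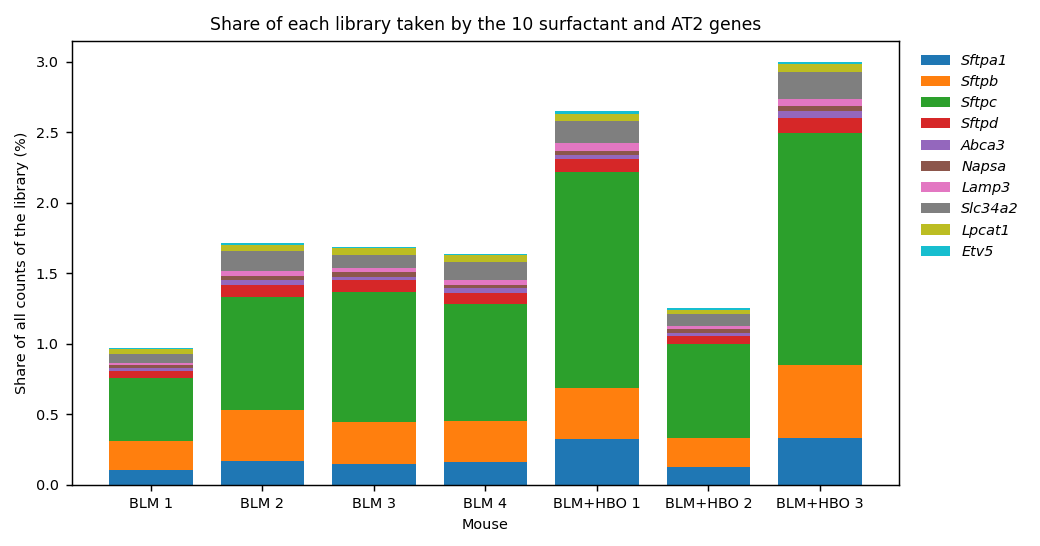
Share of all counts of each library, in percent, taken by each of the 10 genes, stacked by gene for the 7 mice. The bars reach 0.967% to 1.72% in BLM and 2.65%, 1.25% and 3.00% in BLM+HBO 1 to 3, and Sftpc is the widest band in each.

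Of the counts the 10 genes held together, Sftpc took 46.3% to 54.9% in BLM and 57.9%, 52.9% and 54.8% in BLM+HBO 1 to 3. The groups overlapped in this proportion for 7 genes (Sftpa1, Sftpc, Abca3, Napsa, Lamp3, Slc34a2 and Etv5) and did not for 3, beside 1.79% of all tested genes set over the sum of the 10. The 10 genes vary with their own sum, as unrelated genes need not, so that share is not a like background for the 3. Of these 3, Sftpb took 17.8% to 21.3% in BLM and 13.6%, 16.9% and 17.3% in BLM+HBO 1 to 3, below every BLM mouse. Lpcat1 took 2.67% to 2.97% in BLM and 1.79%, 2.60% and 1.78% in BLM+HBO 1 to 3, and Sftpd took 4.75% to 5.24% in BLM and 3.34%, 4.67% and 3.65% in BLM+HBO 1 to 3, again below every BLM mouse. A higher proportion of 1 gene lowers the proportions of the others.

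Ratios between genes of the same mouse do not depend on the library total, and they were chosen after the values above were seen, so they are given with no test. The ratio of Sftpa1 to Sftpb was 0.521, 0.449, 0.479 and 0.540 in BLM 1 to 4 and 0.905, 0.574 and 0.629 in BLM+HBO 1 to 3. That of Sftpc to Sftpb was 2.21, 2.19, 3.09 and 2.80 in BLM 1 to 4 and 4.26, 3.13 and 3.16 in BLM+HBO 1 to 3. For both ratios every BLM+HBO mouse stood above every BLM mouse, BLM+HBO 2 included, though for Sftpc the gap between 3.09 and 3.13 was small. Of the 9 ratios to Sftpb, these 2 did not overlap between the groups, beside 1.26% of all tested genes set over Sftpb. The surfactant and AT2 genes vary with Sftpb, as unrelated genes need not, so that share is not a like background. With Lpcat1 as the divisor, 2 of 9 did not overlap, beside 3.07% of all genes, a share with the same limit. They were Sftpa1, at 3.19 to 3.67 in BLM and 6.85, 3.73 and 6.11 in BLM+HBO 1 to 3, and Sftpd, at 1.71 to 1.78 in BLM and 1.86, 1.79 and 2.05 in BLM+HBO 1 to 3. Sftpc over Lpcat1 overlapped, at 15.6 to 20.6 in BLM and 32.3, 20.3 and 30.7 in BLM+HBO 1 to 3. Only the Sftpa1 ratio was thus apart with both divisors.

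**Figure D3:**
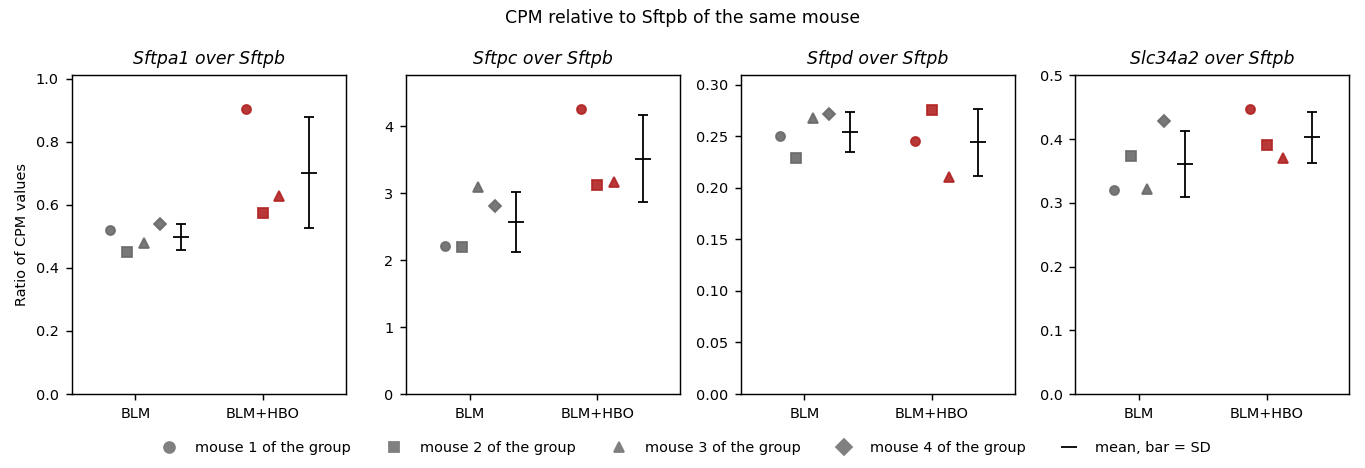
Ratio of the CPM of Sftpa1, Sftpc, Sftpd and Slc34a2 to that of Sftpb in the same mouse, with the group mean and SD at the right. The 3 BLM+HBO mice lie above the 4 BLM mice for Sftpa1 (0.574 and over, against up to 0.540) and for Sftpc (3.13 and over, against up to 3.09), and the groups overlap for the other pair.

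Across the 7 mice, the log2 CPM of the 10 genes varied together, with a Pearson r between 0.67 (Sftpc with Abca3) and 0.98 (Lamp3 with Etv5) over 45 pairs and a median of 0.89. These correlations are a description over 7 libraries that share their scaling. Of the tested genes outside the 10, Spry1, an inhibitor of growth factor receptor signalling, followed their mean z-scored level most closely (r = 0.99 over 7 mice). It had 91.1, 121, 112 and 116 CPM in BLM 1 to 4 and 132, 94.9 and 145 CPM in BLM+HBO 1 to 3, with a log2 fold change of 0.17 (SE 0.16). The next were Prmt8, Rnf187, Dram1, Mlc1, Tmem121b, Arl6ip1 and Tmem116, with r between 0.97 and 0.99. Dram1 and Mlc1 were also in the lists of AT2 genes below.

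Further AT2 genes were taken as a list of 21, all tested. Of these, 7 passed the thresholds and were higher in BLM+HBO (33.3%) and 0 were lower, with a median log2 fold change of 0.32. The 0 and 7 stand beside the 2.89% and 3.4% of all genes given above. Cbr2, a carbonyl reductase that airway club cells also make, had 383, 871, 804 and 519 CPM in BLM 1 to 4 and 2188, 801 and 2270 CPM in BLM+HBO 1 to 3 (log2 fold change 1.44, SE 0.38). Chia1, an acidic chitinase, had 24.1 to 44.5 CPM in BLM and 107, 34.7 and 96.0 CPM in BLM+HBO 1 to 3 (1.18, SE 0.35). Both had BLM+HBO 1 and 3 above all BLM mice and BLM+HBO 2 among them.

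Lyz1, a lysozyme, had 32.4 to 110.2 CPM in BLM and 395, 63.3 and 179 CPM in BLM+HBO 1 to 3 (log2 fold change 1.56, SE 0.54). Leaving out BLM+HBO 1 lowered this to 0.75 and ended the call. Its near copy Lyz2 shares sequence with it, and the counting could leave out reads common to both, so its level is uncertain. Hc, which encodes complement C5, had 77.0 to 286 CPM in BLM and 392, 154 and 663 CPM in BLM+HBO 1 to 3 (1.30, SE 0.49), with BLM+HBO 2 again among the BLM mice. S100g, a calcium-binding protein, had a log2 fold change of 0.61 (SE 0.25), and Bex2, at 16.9 CPM at most, one of 1.70 (SE 0.67). Among the most abundant genes of the list, Cd74, the invariant chain of MHC class II that immune cells also make, had 0.24 (SE 0.22), Cxcl15, a lung chemokine, 0.49 (SE 0.24) and Chil1, a chitinase-like protein, 0.50 (SE 0.43), and none of these passed. The 7 calls became 9 with BLM+HBO 2 left out, 4 with BLM 3 left out, and 3 each with BLM 1, BLM+HBO 1 or BLM+HBO 3 left out. Over all genes, those at an unadjusted P below 0.05 by edgeR also moved, from 1861 with all mice. They numbered 2851, 2064, 1175, 1017 and 1272 in the fits just named, in that order. Such counts take either direction and no fold limit, so they are not a like share for the calls. At both thresholds, 5.29% of all genes were called higher without BLM+HBO 2. DESeq2 also made 7 calls in this list, but not the same 7, since it did not call Bex2 (unadjusted P = 0.0508 by DESeq2). Cbr2 and Chia1 kept their call with each mouse left out in turn. Hc lost it without BLM 1, BLM 2, BLM 3 or BLM+HBO 3, S100g with any mouse but BLM 3 or BLM+HBO 2 left out, and Bex2 with any but BLM 2 or BLM+HBO 2 left out.

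**Figure D4:**
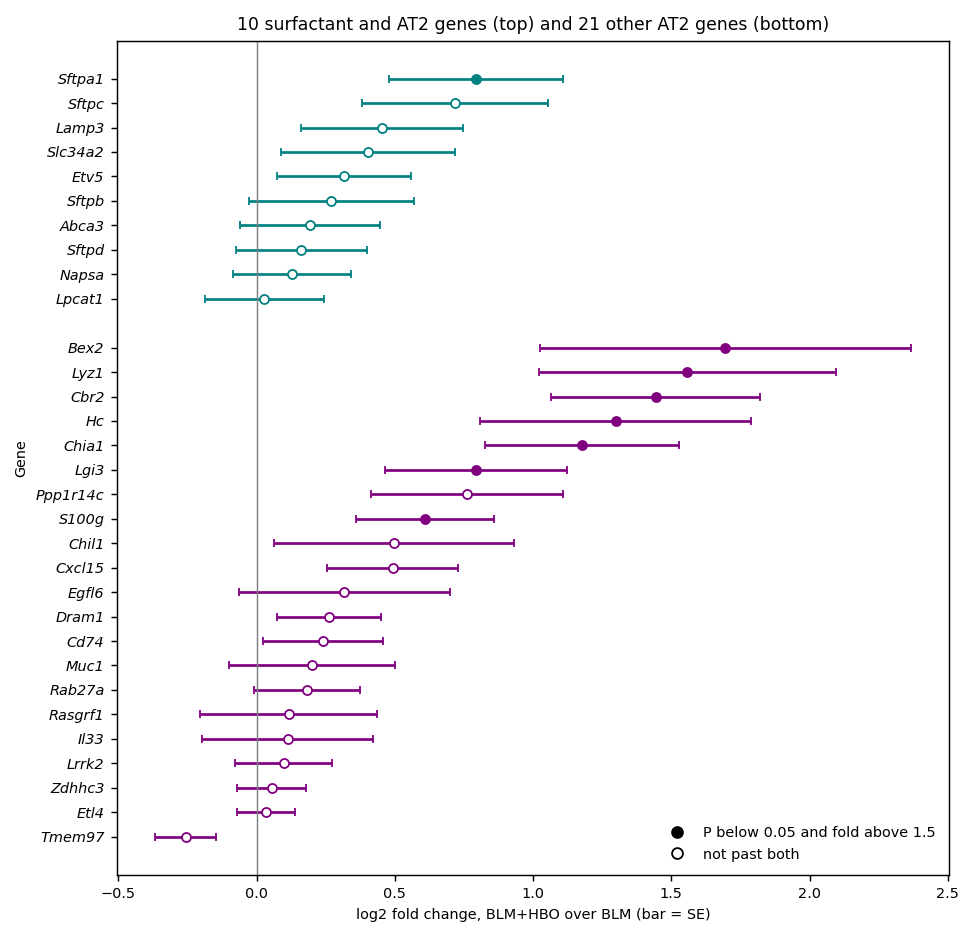
Log2 fold change of BLM+HBO over BLM with its standard error for the 10 surfactant and AT2 genes (top) and the 21 other AT2 genes (bottom), with filled points for genes at P below 0.05 with a fold change above 1.5. Of the 10, Sftpa1 at 0.79 is filled, and of the 21, 7 are filled, from S100g at 0.61 to Bex2 at 1.70.

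Lgi3, a secreted leucine-rich repeat protein of that list, is the neighbour of Sftpc on one side, 6603 bases away. It had 57.5, 127, 109 and 116 CPM in BLM 1 to 4 and 186, 94.3 and 252 CPM in BLM+HBO 1 to 3, and passed the thresholds (log2 fold change 0.79, SE 0.33), but not with any 1 of BLM 1, BLM 3, BLM+HBO 1 and BLM+HBO 3 left out. The neighbour on the other side, Bmp1, a protease that trims procollagen, lies 714 bases away. It had 169 to 199 CPM in BLM and 103, 174 and 173 CPM in BLM+HBO 1 to 3 (-0.29, SE 0.18) and did not pass.

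Exons of Abca3 share 914 bases (9.75% of its exon bases) with D330041H03Rik on the opposite strand, and those of Napsa share 502 bases (18.9%) with the antisense gene Gm15396. The default counting leaves out reads over such shared bases and does not use the strand, so reads from a gene and its antisense partner cannot be told apart there. D330041H03Rik had 26 to 84 counts in BLM and 72 to 153 in BLM+HBO, and Gm15396 had 0 counts in each BLM mouse and 1, 4 and 5 in BLM+HBO 1 to 3, few beside the counts of Abca3 and Napsa. The antisense gene Gm17182 lies within Slc34a2 and shares no exon base with it. Its counts were low, at 7 to 14 in BLM and 20, 19 and 76 in BLM+HBO 1 to 3. It passed the thresholds (log2 fold change 1.49, SE 0.49, adjusted P = 0.423 by edgeR).

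Of 22 genes of surfactant lipid supply and processing, all tested, 1 was called higher, 0 were called lower and the median log2 fold change was 0.03. The 1 of 22 (4.55%) is near the 3.4% of all genes called higher, and 2.89% of all genes were called lower. The 1 was Acoxl, an acyl-CoA oxidase-like gene of AT2 cells, with 5.84 to 17.7 CPM in BLM and 44.1, 10.2 and 38.6 CPM in BLM+HBO 1 to 3 (1.47, SE 0.47), and it lost the call with BLM+HBO 1 left out. Of the most abundant others none passed. Scd1, the stearoyl-CoA desaturase, had a log2 fold change of 0.31 (SE 0.23), Adgrf5, a receptor that limits surfactant, 0.22 (SE 0.18) and Npc2, a cholesterol carrier, -0.29 (SE 0.16). Fasn, the fatty acid synthase, which was named after its value was seen, had 0.00 (SE 0.28). Ctsh, a cathepsin that trims SP-B and was also named after its value was seen, had 618 to 945 CPM in BLM and 438, 711 and 569 CPM in BLM+HBO 1 to 3 (-0.54, SE 0.20). Its unadjusted P was below 0.05 and its fold change did not reach 1.5. It was thus on the other side of 0 from Napsa.

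Of 16 genes that regulate AT2 cells, Fgfr2 was called higher and Sox9 lower, with a median log2 fold change of 0.17. These calls stand beside 3.4% of all genes called higher and 2.89% called lower. Fgfr2, the receptor for FGF7 and FGF10, had 57.6 to 82.9 CPM in BLM and 144, 67.8 and 141 CPM in BLM+HBO 1 to 3 (0.67, SE 0.24). Sox9, a factor of distal lung progenitors, had 2.14 to 6.17 CPM in BLM and 0.905, 2.87 and 1.13 CPM in BLM+HBO 1 to 3 (-1.20, SE 0.49), and -1.87 with BLM+HBO 2 left out. Both calls were lost with BLM 1, BLM+HBO 1 or BLM+HBO 3 left out. Nkx2-1, the lineage factor of lung epithelium, had 124, 169, 232 and 239 CPM in BLM 1 to 4 and 205, 197 and 363 CPM in BLM+HBO 1 to 3 (0.41, SE 0.27), and did not pass. Cebpa (-0.06, SE 0.18) and Cebpd (-0.17, SE 0.19), factors of surfactant gene expression, did not pass either.

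Of 18 AT1 genes, 0 were called in either direction, with 1 at an unadjusted P below 0.05 by edgeR (Pdpn, -0.31, SE 0.13) and a median log2 fold change of 0.02. Their summed level was 9585 to 13034 CPM in BLM and 11692 to 13141 CPM in BLM+HBO. Ager, the receptor that marks AT1 cells, had -0.01 (SE 0.20), Hopx 0.25 (SE 0.16) and the membrane protein Emp2 0.01 (SE 0.13). Of 16 genes of the transitional state between AT2 and AT1 cells, Cldn4 (-0.83, SE 0.30) and Sfn (-0.91, SE 0.25) were called lower and 0 higher, beside the 2.89% and 3.4% of all genes given above. Their median was -0.32, with 15 of 16 values below 0, as for 48.8% of all genes. Leaving out BLM+HBO 2 gave 6 lower calls, leaving out BLM 2 or BLM 4 gave 3, and leaving out BLM+HBO 1 or BLM+HBO 3 gave 1, without Cldn4. In these fits, in that order, 2851, 1220, 1920, 1017 and 1272 of all genes had an unadjusted P below 0.05 by edgeR, against 1861 with all mice. Those counts take either direction and no fold limit. Cldn4, a tight junction protein, had 76.3 to 105 CPM in BLM and 29.8, 80.4 and 39.3 CPM in BLM+HBO 1 to 3, so that BLM+HBO 2 lay among the BLM mice. Krt8, the keratin that names this state, had -0.31 (SE 0.16) and did not pass. Of 12 genes of epithelium in general, 0 were called, with 1 at an unadjusted P below 0.05 by edgeR (Rab25, 0.41, SE 0.15) and a median of 0.12. Epcam had 0.03 (SE 0.15) and Cdh1 0.13 (SE 0.15). Pdpn and Rab25 were named after their values were seen.

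Genes of other cell types also differed between these mice. The calls counted here stand beside the 3.4% of all genes called higher and the 2.89% called lower. Those shares are from the fit with all mice. With a mouse left out, 1017 to 2851 of all genes had an unadjusted P below 0.05 by edgeR, in either direction, against 1861 with all mice. Call counts from such fits below are given without a like share over all genes. Of 12 airway genes, 3 were called higher (Cyp2f2 at 1.15 and Scgb1a1 at 0.73 of club cells, and Ccdc39 at 0.68 of ciliated cells, as log2 fold changes) and 0 lower. Named after their values were seen, Bpifa1 (-1.18, SE 0.64), Scgb3a1 (-1.13, SE 0.51) and the mucin Muc5b (-0.82, SE 0.40) lay on the other side of 0 and did not pass. The higher calls numbered 0 with BLM+HBO 3 left out, 6 with BLM 3 left out and 5 with BLM+HBO 2 left out. Scgb1a1 was also lost without BLM 1, BLM 3, BLM 4 or BLM+HBO 1, and Ccdc39 without BLM 2. The lower calls numbered 2 with BLM 1 or BLM+HBO 2 left out, 1 with BLM 2 left out or by DESeq2, and 3 with no filter on low counts. The summed level of the list was 6102 to 12823 CPM in BLM and 14730, 10093 and 20108 CPM in BLM+HBO 1 to 3. Of 12 fibroblast and matrix genes, 9 were called lower and 0 higher. The 9 fell to 1 with BLM 1 or BLM+HBO 3 left out, to 3 with BLM+HBO 1 left out and to 5 with BLM 2 left out. The count was 8 with BLM 3 or BLM 4 left out and rose to 11 with BLM+HBO 2 left out. The list had a summed level of 7861 to 12975 CPM in BLM and 2576, 8273 and 4409 CPM in BLM+HBO 1 to 3. BLM 1, the lowest mouse for 9 of the 10 surfactant and AT2 genes, had the highest matrix sum, and BLM+HBO 1 and 3 had the lowest. The other mice did not follow an inverse order. BLM 2 had the highest sum of the 10 genes in BLM (17841 CPM) and a matrix sum of 9320 CPM, above the 8513 CPM of BLM 3. BLM+HBO 2, low for the 10 genes, had a matrix sum within the BLM range. Of 14 heart muscle genes, 12 were called higher, with a summed level of 76.0 to 210.0 CPM in BLM and 787, 620.0 and 178 CPM in BLM+HBO 1 to 3, an order unlike that of the 10 genes. With each mouse left out, 8 to 13 heart muscle genes were called higher. Of 15 tested genes of alveolar macrophages and surfactant clearance, 3 were called lower (Marco -2.06, Fabp4 -0.63 and Chil3 -1.06) and Krt79 higher (2.09, and 0.72 with no call when BLM+HBO 3 was left out). Of these 3 lower calls 1, Marco, was left without BLM+HBO 3, and Chil3 was also lost without BLM 1, BLM 2 or BLM+HBO 1 and Fabp4 without BLM 4. The sum was 1442 to 2756 CPM in BLM and 1207 to 1654 CPM in BLM+HBO. Of 12 endothelial genes, 0 were called, with 1 at an unadjusted P below 0.05 by edgeR (Vwf, -0.41, SE 0.14, named after its value was seen). Pecam1 had 0.27 (SE 0.15). None of the listed genes was at 0 in every mouse, and the part of these cell types in the levels of the 10 genes was not tested.

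**Figure D5:**
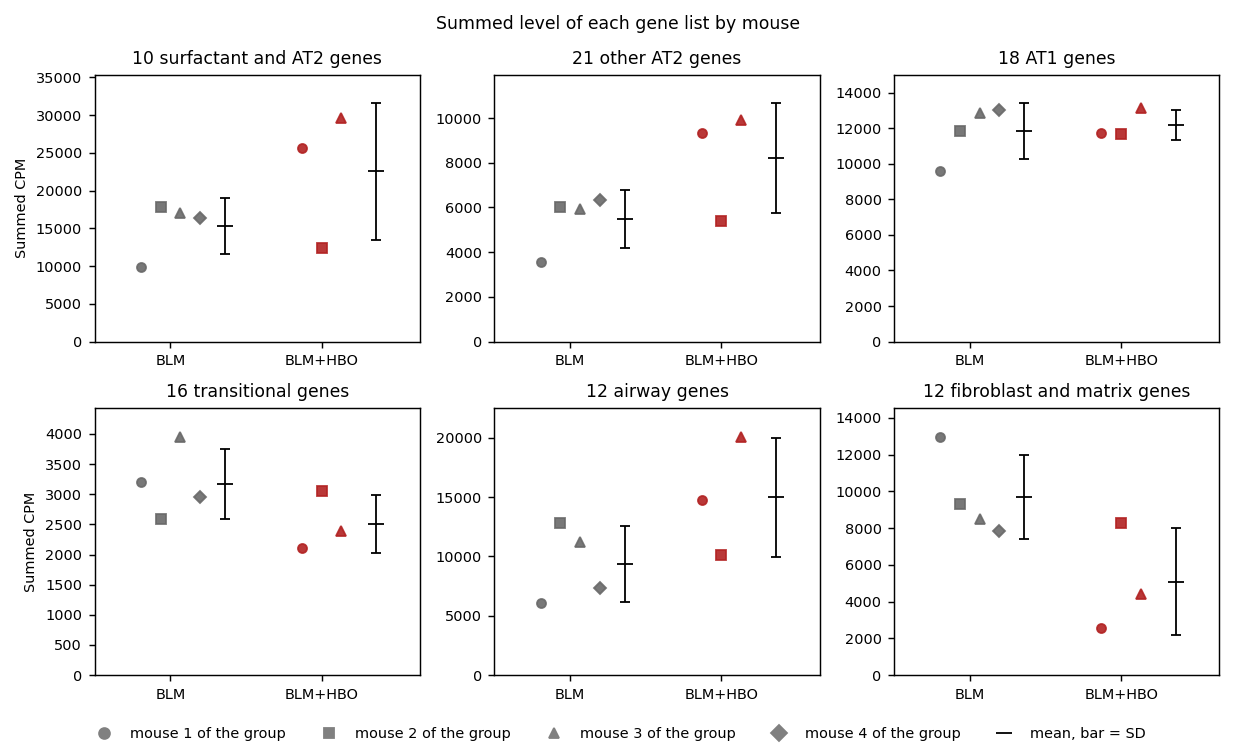
Summed CPM of 6 gene lists in each mouse, with the group mean and SD at the right. The sums of the surfactant and AT2 genes and of the airway genes are highest in BLM+HBO 1 and 3, where the sum of the matrix genes is lowest, and the AT1 sum of BLM+HBO (11692 to 13141 CPM) lies within or just above that of BLM (9585 to 13034 CPM).

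The libraries held 18436336 to 19002242 counts in BLM and 18157161 to 26365969 in BLM+HBO, of which BLM+HBO 3, the highest mouse for 8 of the 10 genes, was the deepest. CPM are scaled to the library, and the part of depth in these levels was not tested.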

How the data were processed

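Total RNA was extracted from the right lung lobes, and libraries were made with a NEBNext Ultra kit. After trimming with Trim Galore, the authors aligned the reads to GRCm38 with Hisat2 and deposited raw read counts per gene from featureCounts at its defaults, which ignore strand and count neither multi-mapping reads nor those shared by overlapping genes. The annotation release is not given in the sources used here, and the exons of the 10 genes matched GENCODE vM21, from which symbols were taken for 55141 of 55401 genes.

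Low counts were removed by filterByExpr (at minimum count 10 and minimum total 15), and the rest were normalized by TMM and tested with edgeR 4.0.16 (quasi-likelihood test, BLM as reference, Benjamini-Hochberg adjustment over 17465 genes) under R 4.3.3. The test was checked on simulated counts. The study's thresholds were used, P below 0.05 before adjustment and a change of over 1.5-fold. Log2 CPM used a prior count of 2. The SE of an edgeR log2 fold change was derived as its absolute value divided by the square root of the test's F statistic. Alternatives were DESeq2 1.42.0, RLE factors, no filter, a replicate block, other totals for shares and leaving out each mouse.

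The 10 genes, the 11 further gene lists with 171 symbols and the tests were chosen with earlier results of these data known, so no list is independent of these mice. Named genes were the 10, from each further list the genes past both thresholds (6 at most) and up to 3 others with the highest counts, reference markers, the 8 most similar genes, overlapping genes and neighbours. The fibroblast and matrix list and the heart muscle list are exceptions, described as lists with no gene named. Libraries of a group differed beyond sampling noise (chi-square of at least 22.1 per gene) and each counted as 1 replicate. The labels do not name separate animals, so the P values measure the spread between these samples. Same-numbered mice of the groups were not paired (correlations of their deviations -0.01, -0.07 and 0.16). The depth of 18157161 to 26365969 counts limits low genes such as Mbl1 and Sox9.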

Additional observations from a re-analysis of the deposited data

Results flagged for a closer look

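BLM 1 lay far below the other BLM mice in 3 of 24 groups of values that were examined, where the gap of the lowest or highest mouse to its nearest neighbour was set against Dixon's 95% critical value for 4 samples. Chance gives about 1 in 20 such groups. The values examined share their libraries and are not independent.

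For Sftpd, BLM 1 had a log2 CPM of 9.01, while BLM 2 to 4 had 9.64 to 9.76, a gap of 0.841 of the range of the group. For Lpcat1, BLM 1 had 8.19 and BLM 2 to 4 had 8.83 to 8.95 on the same scale, a gap of 0.844 of the range. The share of the library taken by the 10 surfactant and AT2 genes came to 0.967% for BLM 1, against 1.64% to 1.72% for BLM 2 to 4, a gap of 0.896 of the range. The 3 mice of BLM+HBO were too few for this rule, and why BLM 1 was low was not tested.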

How the results depend on the processing

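The 10 surfactant and AT2 genes held 1 call at the study's thresholds, 2 by DESeq2, 2 without a filter on low counts, 0 with a replicate block and 0 to 4 with each mouse left out, where 4 came from leaving out BLM+HBO 2. At an adjusted P below 0.05 the count was 0 under each other setting and 0 to 1 with each mouse left out. The other listed genes held 40 calls, and 20 to 54 with each mouse left out. The difference in library share was 0.796 percentage points for the 10 genes and 0.729 for the 4 surfactant protein genes, and 0.446 to 1.32 and 0.423 to 1.20 with each mouse left out. It was lowest without BLM+HBO 3 and highest without BLM+HBO 2.

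With each mouse left out, the log2 fold change ranged from -0.10 to 0.54 for Sftpb, -0.073 to 0.37 for Sftpd, -0.18 to 0.41 for Abca3, -0.067 to 0.27 for Napsa and -0.14 to 0.21 for Lpcat1. The lowest value came from leaving out BLM+HBO 3 in each case and the highest from leaving out BLM+HBO 2. Of 110 combinations of the 10 genes with an alternative, 92 kept the direction and the side of the thresholds, 5 gained a call, 5 lost it and 8 changed sign. Of 143 for 13 other named genes, 105 kept both, 35 lost the call, 3 gained it and 0 changed sign.

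The replicate block, which treats same-numbered mice as pairs although the numbers do not pair them, gave Sftpa1 a log2 fold change of 0.75 and an adjusted P of 0.533 by edgeR. The block left 3 calls among the 21 further AT2 genes and made 2 lower calls among the 12 airway genes. All further lists together, these included, held 38 calls in either direction. Without the filter, edgeR called 387 of 32896 genes after adjustment, among them 29 of the other listed genes and 0 of the 10. The cause of these shifts was not tested.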
